A study of Homo sapiens with 6 samples.

Results

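The genes described here were 9 FBXL genes, FBXL2, FBXL4, FBXL5, FBXL8, FBXL12, FBXL14, FBXL15, FBXL18 and FBXL20, which encode relatives of FBXL6, the gene targeted by the siRNA. They were taken by name from the FBXL family, with earlier results of these data known. All 9 were found among the 56303 genes of the count table and among the 21298 that passed the filter on low counts. Cells of the established human line T24, derived from a bladder carcinoma, carried either a negative control siRNA (siNC) or siRNA against FBXL6 (siFBXL6) for 48 h, with 3 libraries in each group. Both groups were wild-type cells transfected with a lipid reagent and shared a single batch label. Polyadenylated RNA was sequenced from stranded libraries, and the comparison addressed whether related F-box genes were higher where FBXL6 was targeted. The siNC libraries held 58646515, 60967902 and 56814946 counts, and the libraries labelled siFBXL6 held 60968158, 60898556 and 60754015. The labels do not say whether the 3 libraries of a group came from separate cultures, so the p-values measure only the spread between these libraries, which may be technical.

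F-box proteins are the substrate receptors of SCF ubiquitin ligases, in which the scaffold CUL1 carries the RING protein RBX1 at one end and the adaptor SKP1, with an F-box protein, at the other. The FBXL subfamily binds its substrates through leucine-rich repeats, and its members differ in the proteins they mark for ubiquitination. Members compete for the same CUL1 and SKP1, and the known substrates are controlled as proteins, which RNA counts do not measure.

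FBXL6 itself was measured first, as a check on the labels. Its level in CPM, the counts per 1000000 counts of the TMM-scaled library, was 6.19, 6.70 and 6.93 in the siNC libraries and 6.58, 5.70 and 5.81 in the libraries labelled siFBXL6. The groups overlapped, because the first library labelled siFBXL6 lay between siNC libraries. The log2 fold change, siFBXL6 over siNC, was -0.13 (95% interval -0.31 to 0.05, adjusted p = 0.247 in edgeR's quasi-likelihood test), which spans a change from -19.4% to 3.24%. On chromosome 8, 31.7% of FBXL6's exon bases also belong to exons of SLC52A2 on the opposite strand, and whether the counting used the strand is not given in the sources used here. SLC52A2, a riboflavin transporter gene, had a log2 fold change of 0.15 (adjusted p = 0.078 in edgeR's test, from 0.0438 without siNC replicate 3 to 0.275 over the 13 alternative settings). Reads of FBXL6 and SLC52A2 cannot be told apart on the shared bases if strand was not used. GS1-393G12.13, on the same strand, shares 5.30% of the FBXL6 exon bases and was counted between 8 and 20 times in each library, with a log2 fold change of -0.58 (adjusted p = 0.296 in edgeR's test). A fall of the FBXL6 transcript was thus not detected in these counts. A response of the members to loss of FBXL6 RNA can therefore not be read from them, and every direction below is between libraries named by their labels.

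None of the 9 members passed the test. With edgeR's quasi-likelihood test, 0 of the 9 members were called at an adjusted p under 0.05, against 8569 of the 21298 genes tested (40.2%). The count was 0 of 9 higher, against 4360 genes (20.5%), and 0 of 9 lower, against 4209 genes (19.8%). Among the 10608 genes whose mean level lay within the members' own range, from 0.759 to 26.5 CPM, 4080 were called (38.5%). DESeq2 also called 0 of the 9 members. It called fewer genes in all than edgeR, from a larger fit of 38192 genes, with both totals given in the last section. The 40.2% of edgeR is therefore not the background for the DESeq2 count. At an unadjusted p under 0.05, edgeR gave 1 of the 9 members (FBXL14) and 9960 of all genes tested (46.8%). The 3 values of one group lay wholly above or below the 3 of the other for 0 of the 9 members, against 10266 of the genes tested (48.2%). The log2 fold change was above 0 for 4 members and below 0 for 5. Their median was -0.01, beside -0.01 for all genes tested, and the median size without regard to sign was 0.07 for the members and 0.18 for all genes tested. Their levels added together were 72.7, 74.5 and 70.4 CPM in the siNC libraries and 74.0, 70.5 and 74.8 CPM in the libraries labelled siFBXL6, and the groups overlapped.

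**Figure D1:**
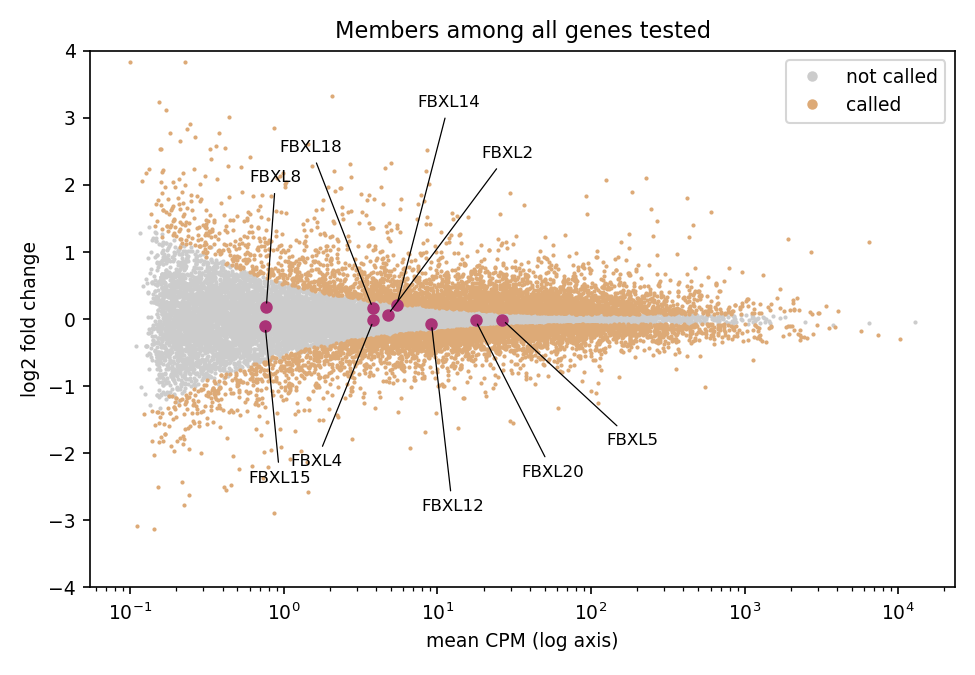
Log2 fold change (siFBXL6 over siNC) against mean CPM on a log axis for the 21298 genes tested, with called genes (adjusted p under 0.05, edgeR) in orange and the rest in grey. The 9 members, in purple, all lie in the grey band, and FBXL14 lies near its upper edge.

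FBXL14, which directs the EMT factors SNAI1, SNAI2 and TWIST1 to degradation, came nearest to the threshold. Its level was 4.74, 5.47 and 4.95 CPM in the siNC libraries and 6.37, 5.46 and 5.74 CPM in those labelled siFBXL6. The groups met at a single point, where siNC replicate 2 was just above siFBXL6 replicate 2. The means were 5.05 ± 0.379 and 5.86 ± 0.463 CPM (SD, n = 3 each), and an exact two-sided permutation test gave p = 0.2, where 3 libraries against 3 cannot give less than 0.1. This was a log2 fold change of 0.21 ± 0.09 (standard error), with a 95% interval from 0.02 to 0.40 and an edgeR adjusted p of 0.0729, or 15.9% with bounds of 1.40% and 32.4%. Without siNC replicate 2 it was 0.27 and passed the threshold (adjusted p = 0.0421 in edgeR's test). With DESeq2 the adjusted p was 0.188, and over the 13 alternative settings it ran from 0.0421 to 0.298. FBXL14 lies on the minus strand of chr12:1565993-1594165 in GRCh38, and its exons are shared with no other gene of the table.

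Of the proteins that FBXL14 targets, SNAI1 was counted between 13 and 24 times in each library. Its log2 fold change was 0.35, with a 95% interval from -0.44 to 1.14. The SNAI1 value ran from 0.13 without siFBXL6 replicate 3 to 0.46 without siNC replicate 3. TWIST1 and SNAI2 were chosen after their values were seen. TWIST1 was 5.54, 6.22 and 6.39 CPM under siNC and 8.81, 8.56 and 8.16 CPM in the libraries labelled siFBXL6. The groups did not overlap, and TWIST1 rose by 40.7%, a log2 fold change of 0.49 (adjusted p = 7.12e-06 in edgeR's test). SNAI2 had a log2 fold change of -0.03 (95% interval -0.09 to 0.04).

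**Figure D2:**
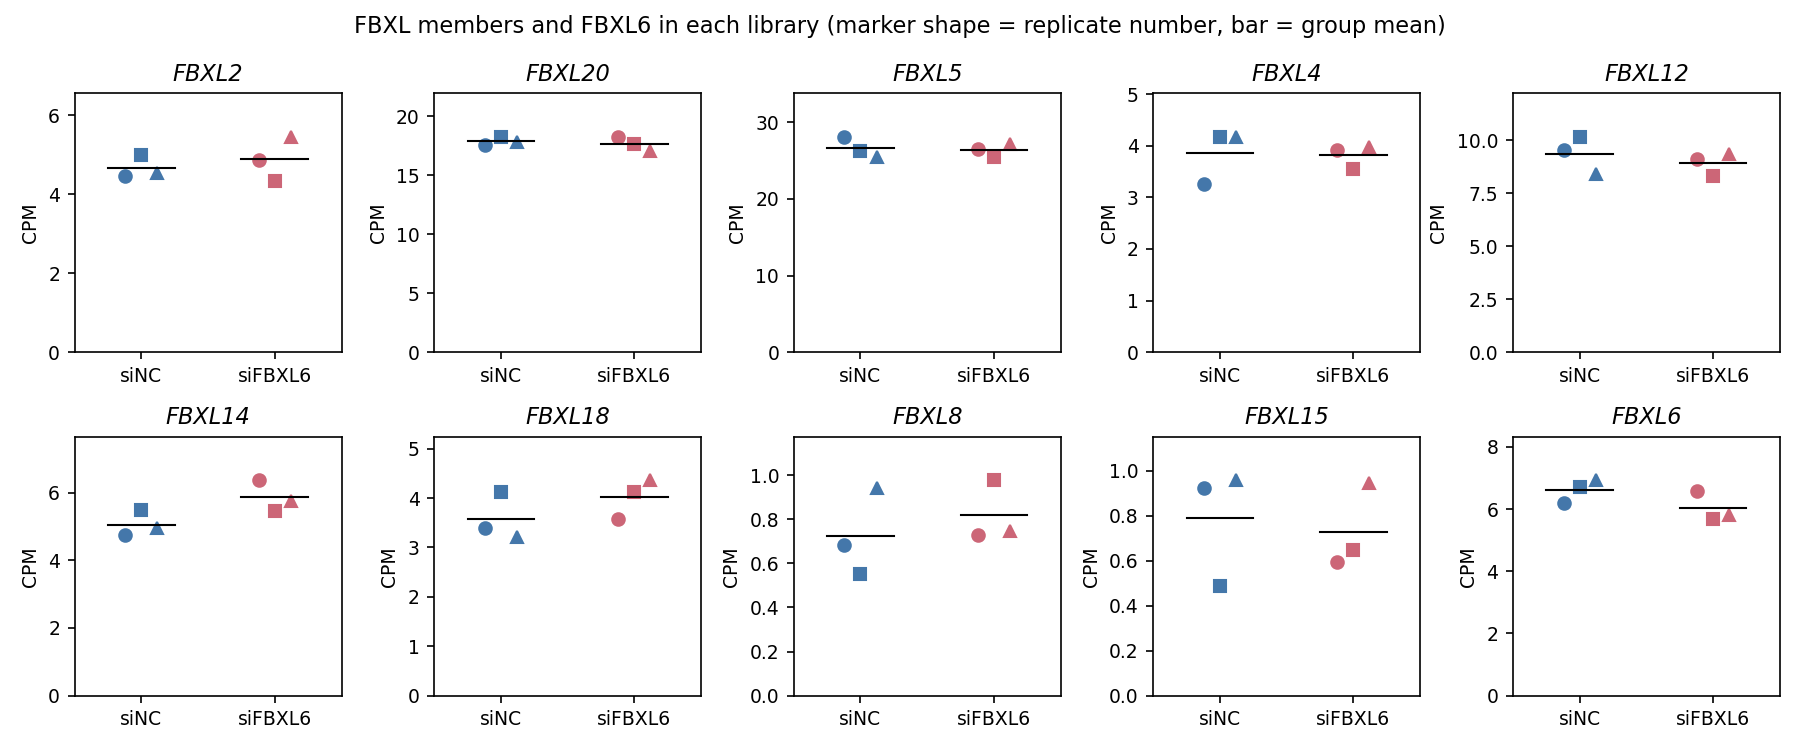
CPM of each member and of FBXL6 in each library, on axes that start at 0, with circles, squares and triangles for replicates 1, 2 and 3 and a bar for the group mean. The groups overlap in each of the 10 panels.

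FBXL2 and FBXL20 shared the longest run of identical coding bases among the members. FBXL2 is held at membranes by a prenyl anchor, and its targets include the PI3-kinase subunit PIK3R2 and the calcium channel ITPR3. FBXL20, also named SCRAPPER, acts on the synaptic protein RIMS1 and on the lipid kinase PIK3C3. Translated from GENCODE release 44, their canonical proteins share 331 of 423 aligned residues (78.3%), and the aligned codons share 891 of 1269 bases (70.2%). The longest stretch of identical coding bases was 17, and no other of the 36 pairs of members shared more than 15. Over whole transcripts, untranslated parts included, this pair shared a run of up to 37 bases, while FBXL18 and FBXL20 shared 52, and FBXL2 shared 47 with FBXL8 and 47 with FBXL18. A stretch of 60 coding bases around the run of 17 is shown, with capitals at the 15 bases at which the pair differs. This stretch holds the longest run of identical coding bases of FBXL2 and FBXL20 and differences that tell the pair apart. In FBXL2 it covers codons 390 to 409 in exon 15, on the plus strand of chr3:33385504-33385563 in GRCh38. In FBXL20 it covers codons 403 to 422 in exon 15, on the minus strand of chr17:39261505-39261564.
FBXL2: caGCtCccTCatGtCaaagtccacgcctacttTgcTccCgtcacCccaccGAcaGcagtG
FBXL20: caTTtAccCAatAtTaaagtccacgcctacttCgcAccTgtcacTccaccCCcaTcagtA

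FBXL2 was measured at 4.46, 4.99 and 4.53 CPM in the siNC libraries and at 4.86, 4.34 and 5.46 CPM in those labelled siFBXL6. The libraries labelled siFBXL6 held both the lowest and the highest value, so the groups overlapped entirely. FBXL2 thus had a log2 fold change of 0.07 (95% interval -0.14 to 0.28, adjusted p = 0.65 in edgeR's test). FBXL20 was measured at 17.5, 18.3 and 17.8 CPM under siNC and at 18.2, 17.7 and 17.0 CPM in those labelled siFBXL6. Again the ranges overlapped, and the log2 fold change was -0.02 with a narrow 95% interval from -0.13 to 0.09, which spans changes from -8.55% to 6.48%. Neither gene shares exon bases with another gene of the table. The longest run of bases that any FBXL6 transcript shares with a transcript of any of the 9 members was 15.

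Some partners of this pair were called, in both directions, and others were not. RIMS1, counted between 14 and 42 times in each library, had a log2 fold change of -0.18 (95% interval -0.85 to 0.50), and FBXO3, a partner of FBXL2, had -0.0021 (95% interval -0.08 to 0.07). ITPR3 was 210, 199 and 183 CPM in the siNC libraries and 261, 259 and 259 CPM in those labelled siFBXL6. The groups did not overlap, and ITPR3 rose by 31.5% (log2 fold change 0.39, adjusted p = 2.72e-11 in edgeR's test). PIK3C3, the FBXL20 substrate, was 31.9, 31.5 and 32.4 CPM under siNC and 38.6, 38.4 and 37.9 CPM in those labelled siFBXL6, again without overlap (log2 fold change 0.26, adjusted p = 2.39e-06 in edgeR's test). PIK3R2, AURKB and PGGT1B were named after their values were seen. PIK3R2 and the mitotic kinase gene AURKB fell by 0.19 and by 0.12 on the log2 scale. PGGT1B, a subunit gene of a prenyl transferase, rose by 0.16. Adjusted p over the alternative settings ran from 0.00151 to 0.0609 for AURKB, which did not pass without siFBXL6 replicate 1, and from 0.0105 to 0.116 for PGGT1B, which did not pass without siFBXL6 replicate 3 (edgeR and DESeq2).

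FBXL5 is the iron-sensing member. Its hemerythrin domain binds iron and stabilizes the protein, which then marks the iron regulatory protein IREB2 for degradation. FBXL5 was measured at 28.1, 26.2 and 25.4 CPM in the siNC libraries and at 26.6, 25.4 and 27.2 CPM in those labelled siFBXL6. All 3 values of the latter group lay inside the siNC range. Its log2 fold change was -0.01 ± 0.05 (standard error; edgeR adjusted p = 0.896), and the 95% interval allowed a change from -7.24% to 6.30%. That interval was among the narrowest of the members, since FBXL5 was counted between 1460 and 1646 times in each library. FAM200B on the opposite strand shares 18 exon bases with FBXL5 (0.394%) and rose by 0.34 on the log2 scale (adjusted p = 8.54e-06 in edgeR's test).

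IREB2 had a log2 fold change of 0.08 (95% interval 0.0047 to 0.16, adjusted p = 0.0866 in edgeR's test) and passed only when siFBXL6 replicate 1 was left out (adjusted p = 0.0227, against at most 0.366 in the other alternative settings). Of the 5 mRNAs that iron regulatory proteins bind, 1 was called (20%, beside 40.2% of all genes tested), the transferrin receptor gene TFRC. TFRC was 107, 102 and 103 CPM under siNC and 134, 143 and 135 CPM in the libraries labelled siFBXL6. The groups did not overlap, and TFRC rose by 32.1% (log2 fold change 0.40, adjusted p = 2.8e-12 in edgeR's test). The iron exporter gene SLC40A1 and the importer gene SLC11A2 had log2 fold changes of 0.27 and 0.07. The ferritin genes FTH1 and FTL had 0.03 and -0.09, and none of these 4 genes passed. The SLC40A1 value ran from 0.12 without siFBXL6 replicate 1 to 0.37 without siFBXL6 replicate 3. FTL passed with upper quartile scaling (adjusted p = 0.0268 in edgeR's test) and with library size alone (0.0237), and reached up to 0.214 in the others.

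FBXL4, at the mitochondrial outer membrane, restrains mitophagy by turning over the receptors BNIP3 and BNIP3L. It was measured at 3.27, 4.18 and 4.16 CPM in the siNC libraries and at 3.92, 3.54 and 3.98 CPM in those labelled siFBXL6. The libraries labelled siFBXL6 lay within the siNC range, and siNC replicate 1 was the lowest of all. For FBXL4 the log2 fold change was -0.02 (95% interval -0.25 to 0.21, adjusted p = 0.91 in edgeR's test). BNIP3 had a log2 fold change of 0.07 (95% interval -0.01 to 0.15) and did not pass.

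FBXL12 and FBXL8 act on regulators of the cell cycle, FBXL12 on the CDK inhibitor CDKN1C and FBXL8 on D-type cyclins. FBXL12 was measured at 9.54, 10.2 and 8.39 CPM in the siNC libraries and at 9.14, 8.33 and 9.37 CPM in those labelled siFBXL6. The groups overlapped, with a log2 fold change of -0.07 (95% interval -0.23 to 0.09). FBXL8 had few counts, namely 40, 34 and 54 under siNC and 44, 59 and 45 where the label was siFBXL6. The groups overlapped, and the log2 fold change of 0.18 had a 95% interval from -0.33 to 0.69, which spans changes from -20.7% to 61.1%. CDKN1C, the FBXL12 substrate, had a log2 fold change of -0.34 (95% interval -0.79 to 0.10). The CDKN1C log2 fold change ran from -0.48 without siFBXL6 replicate 1 to -0.14 without siNC replicate 2. CCND3, a cyclin that FBXL8 binds, had 0.15 (95% interval 0.02 to 0.27, adjusted p = 0.0561 in edgeR's test), which passed without siNC replicate 3 (adjusted p = 0.03) and without siFBXL6 replicate 3 (0.0469) and reached up to 0.173 in the other alternative settings. CAMK1, a kinase gene tied to FBXL12 and named after its value was seen, rose by 0.28 (adjusted p = 4.08e-06 in edgeR's test).

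The count of FBXL8 is uncertain for a further reason. RP11-5A19.5, on the same strand, shares 840 of its exon bases with FBXL8, which is 26.8% of those counted for FBXL8. It was measured at 1.42, 1.47 and 1.52 CPM under siNC and at 1.65, 1.77 and 1.58 CPM in those labelled siFBXL6, with no overlap but a log2 fold change of 0.18 that did not pass (adjusted p = 0.411 in edgeR's test). TRADD, an adaptor of the TNF receptor on the opposite strand, shares 126 bases (4.03%) and had a log2 fold change of 0.19 (adjusted p = 0.201 in edgeR's test).

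FBXL15 marks the BMP pathway ligase SMURF1 for degradation. Its counts were 54, 30 and 55 in the siNC libraries against 36, 39 and 57 in those labelled siFBXL6. Each group held low and high libraries, and siNC replicate 2 was the lowest of all. The log2 fold change was -0.11 with a wide 95% interval, -0.65 to 0.44, and its sign changed when siNC replicate 1, siNC replicate 3 or siFBXL6 replicate 1 was left out. PSD on the opposite strand shares 719 exon bases (27.7% of those counted for FBXL15) and was counted between 22 and 46 times in each library, with a log2 fold change of -0.34 (adjusted p = 0.433 in edgeR's test). SMURF1 was 55.2, 54.8 and 52.8 CPM under siNC and 71.0, 72.2 and 71.2 CPM in the libraries labelled siFBXL6. The groups did not overlap, and SMURF1 rose by 31.6%, a log2 fold change of 0.40 (adjusted p = 1.19e-11 in edgeR's test).

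FBXL18, which acts on the related receptor FBXL7, was measured at 3.40, 4.13 and 3.22 CPM in the siNC libraries and at 3.57, 4.12 and 4.36 CPM in those labelled siFBXL6. The groups overlapped through siNC replicate 2. Its log2 fold change was 0.16 (95% interval -0.07 to 0.40, adjusted p = 0.286 in edgeR's test), the next smallest adjusted p among the members after FBXL14. FBXL7 was counted at most 4 times in any library and was not tested.

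**Figure D3:**
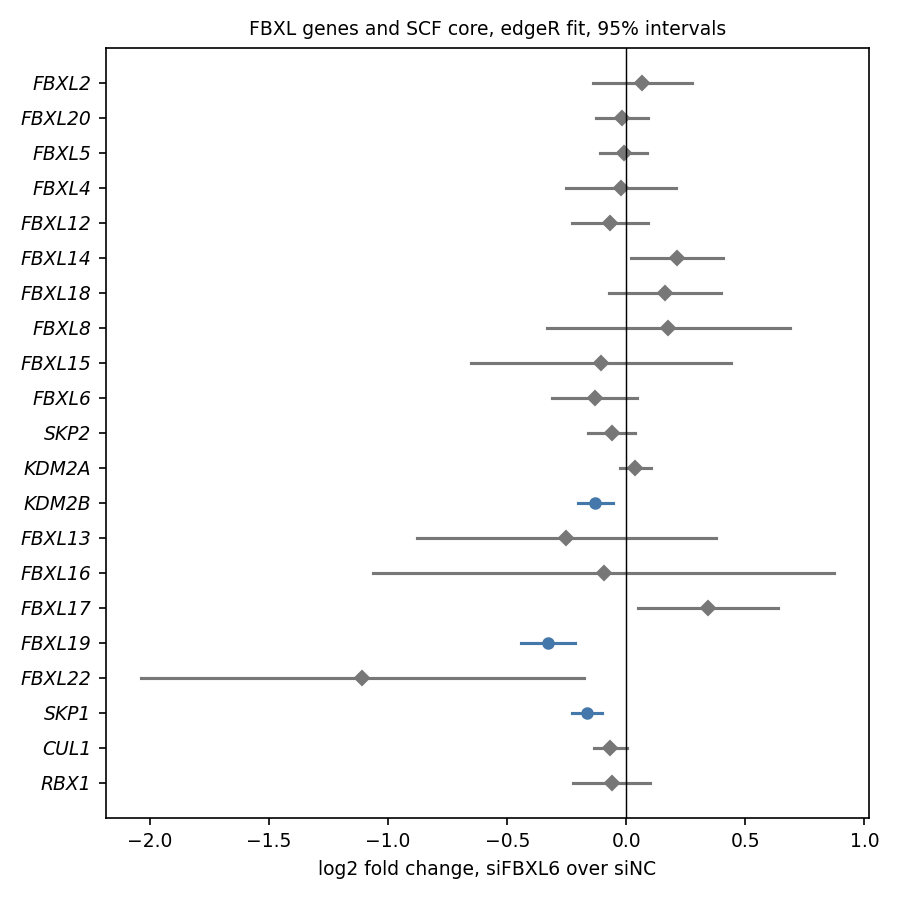
Log2 fold change (siFBXL6 over siNC) with 95% intervals from the edgeR fit for the 9 members at the top, then FBXL6, 8 other FBXL genes and the SCF core; blue circles are called lower and grey diamonds are not called. The intervals of 8 members span 0, and those of FBXL8 and FBXL15 are the widest among the members.

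Levels of the members relative to each other were compared per kilobase of exon, as CPM per kb, over the 6 libraries. FBXL5 was highest, with values from 5.56 to 6.15, followed by FBXL12 (2.86 to 3.50), FBXL14 (2.07 to 2.78) and FBXL20 (1.54 to 1.65). FBXL18 (0.633 to 0.858) and FBXL2 (0.566 to 0.712) overlapped, and FBXL4 lay below them (0.402 to 0.515). FBXL15 (0.187 to 0.369) and FBXL8 (0.176 to 0.312) were lowest and overlapped. Of the 8 pairs of neighbours in this order, 2 overlapped and 6 did not. FBXL6 lay between FBXL14 and FBXL20, from 1.69 to 2.05 CPM per kb, and FBXL5 averaged 3.10 times its level. These levels divide by all annotated exon bases of a gene, including exons of transcripts that T24 cells may not use.

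**Figure D4:**
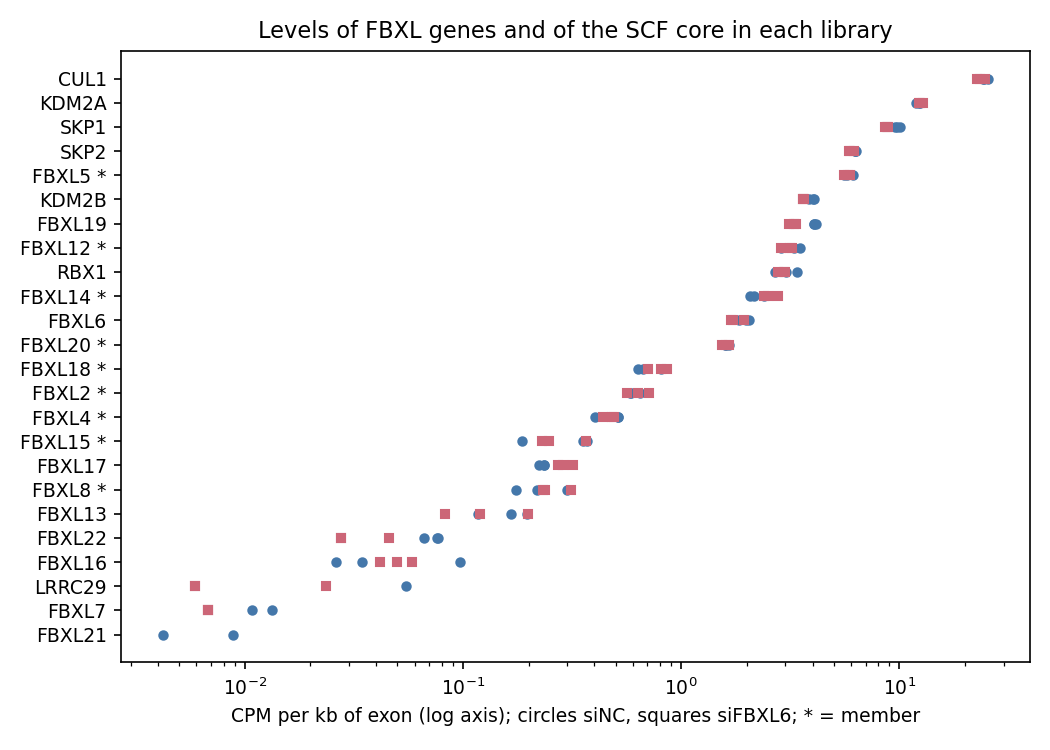
CPM per kb of exon on a log axis in each library for the 9 members, FBXL6, 11 other FBXL genes and the SCF core, with circles for siNC, squares for siFBXL6 and asterisks at the names of the 9 members; libraries at 0 are not drawn. Members run from 0.176 to 6.15 CPM per kb, and the groups of each member overlap.

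Of 11 other FBXL genes, 8 were tested, 0 were higher and 2 were lower by edgeR's test (25% called, beside 40.2% of all genes tested), with a median log2 fold change of -0.11. DESeq2, which called fewer genes in all than edgeR, also called 0 higher and 2 lower. At an unadjusted p under 0.05 edgeR gave 1 higher, FBXL17, and 3 lower, FBXL19, KDM2B and FBXL22, beside 46.8% of all genes tested. FBXL19, which binds CpG-rich DNA, fell by 20.4%, from 17.7, 17.7 and 18.0 CPM under siNC to 14.6, 13.6 and 14.3 CPM (log2 fold change -0.33, adjusted p = 1.24e-05 in edgeR's test). The groups did not overlap. AC135048.13, on the same strand, shares 183 of its exon bases with FBXL19 (4.22% of FBXL19) and had a log2 fold change of -0.03 (95% interval -0.79 to 0.73). FBXL19-AS1, singled out after its values were seen, shares 98 bases (2.26% of FBXL19) on the opposite strand and had 26, 35 and 26 counts under siNC against 65, 59 and 71 where the label was siFBXL6 (log2 fold change 1.14, adjusted p = 0.000259 in edgeR's test). The histone demethylase gene KDM2B fell by 0.13 (adjusted p = 0.00411 in edgeR's test). FBXL17 and FBXL22 came near the threshold, with log2 fold changes of 0.34 and -1.11 (adjusted p = 0.0555 and 0.0516 in edgeR's test), and FBXL22, counted at most 17 times in a library and sharing 26.6% of its exon bases with USP3-AS1 on the opposite strand, passed with upper quartile scaling (0.0468) and with library size alone (0.0465), against up to 0.176 in the others. SKP2, KDM2A, FBXL13 and FBXL16 had log2 fold changes of -0.06, 0.04, -0.25 and -0.09 and did not pass. FBXL7, LRRC29 and FBXL21 had too few counts to be tested. No test compared the members with these genes.

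Of the SCF core that all members share, SKP1 was 125, 121 and 129 CPM in the siNC libraries and 113, 109 and 112 CPM in those labelled siFBXL6. The groups did not overlap, and SKP1 fell by 10.8% (log2 fold change -0.17, adjusted p = 6.38e-05 in edgeR's test). CUL1 and RBX1 had log2 fold changes of -0.07 (95% interval -0.14 to 0.0017) and -0.06 (95% interval -0.22 to 0.10) and did not pass, though CUL1 passed with upper quartile scaling (adjusted p = 0.0392 in edgeR's test) and with library size alone (0.0333), against up to 0.443 in the others. Among the 27 genes for SCF regulators and ubiquitin-conjugating enzymes, 5 were higher and 8 were lower (48.1% called, beside 40.2% of all genes tested), with a median log2 fold change of -0.04 beside -0.01 for all genes tested. The 3 smallest adjusted p-values were those of NAE1, UBE2M and GPS1. NAE1, part of the enzyme that activates NEDD8, was 57.2, 59.9 and 59.8 CPM under siNC and 77.3, 74.2 and 75.4 CPM in those labelled siFBXL6 (log2 fold change 0.36, adjusted p = 1.1e-10 in edgeR's test). UBE2M, which passes NEDD8 to cullins, rose by 0.23, and GPS1, a subunit of the signalosome that removes NEDD8 from cullins, fell by 0.24.

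Of the 25 genes listed as substrates and partners of the members, 24 were tested, 6 were higher and 2 were lower, that is 33.3% called beside 40.2% of all genes tested. Their median log2 fold change was 0.08. The 6 higher genes were SMURF1, ITPR3, PIK3C3, TWIST1, CAMK1 and PGGT1B, and the 2 lower were PIK3R2 and AURKB. These changes stand beside members whose own counts did not pass, and any link between them was not tested.

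**Figure D5:**
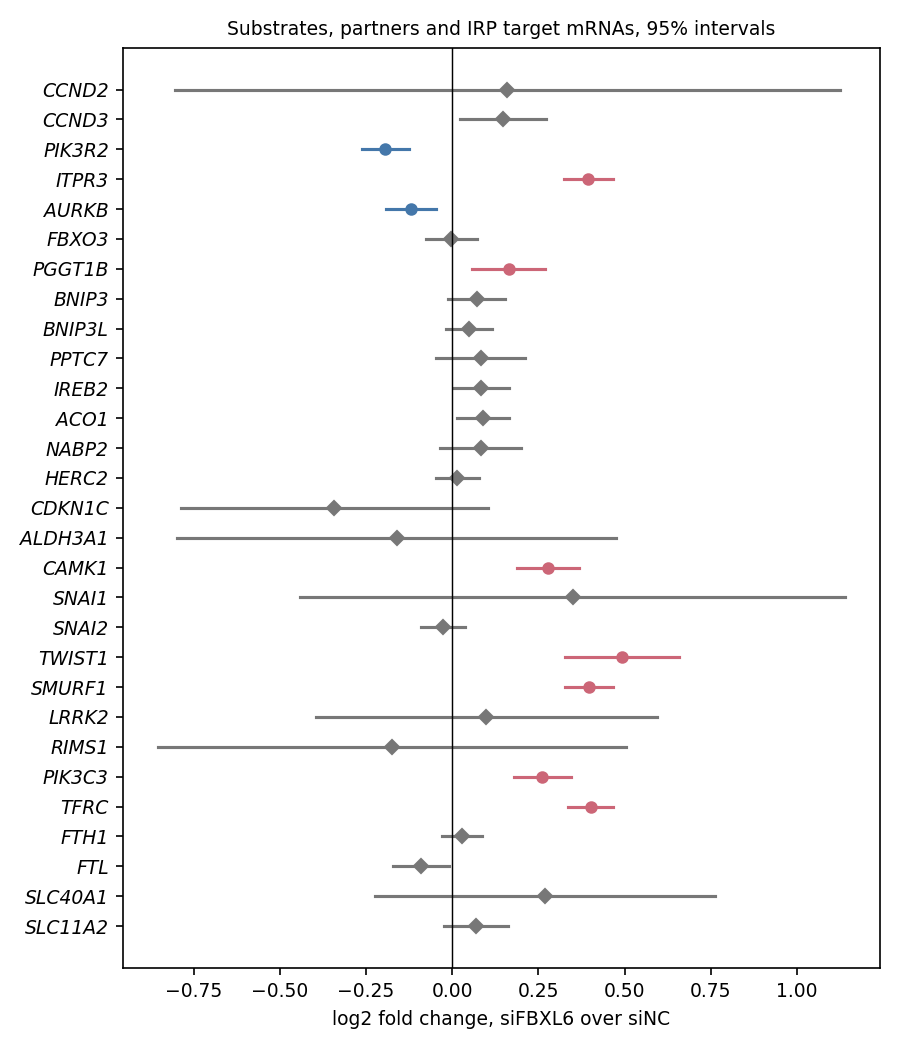
Log2 fold change (siFBXL6 over siNC) with 95% intervals from the edgeR fit for the 24 tested substrates and partners of the members, then the 5 mRNAs bound by iron regulatory proteins. Red circles are called higher, blue circles called lower and grey diamonds not called; SMURF1, ITPR3 and TFRC lie near 0.40.

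Markers were read to check the labelled cell line. The epithelial keratins were abundant, at 3015, 2917 and 3002 CPM added together in the siNC libraries and 2715, 2687 and 2697 in those labelled siFBXL6, with KRT7 the most abundant, and 3 of 4 were lower (KRT7, KRT8 and KRT19), or 75% beside 19.8% of all genes tested. KRT7 did not pass without siFBXL6 replicate 1 or without siFBXL6 replicate 3 (adjusted p = 0.074 and 0.107 in edgeR's test). Markers of urothelial differentiation were low apart from PPARG and GATA3, with UPK1A at 0 in each library and UPK2 between 68 and 94 counts; GATA3 fell by 0.53 on the log2 scale (adjusted p = 7.57e-08 in edgeR's test). Of 3 leukocyte markers, 2 were tested and 1 was higher, CD68, which is also a lysosomal gene of other cell types and rose by 1.49. The list summed to 7.18, 7.30 and 7.19 CPM under siNC and 20.0, 18.0 and 19.2 CPM in those labelled siFBXL6, nearly all of it CD68, while PTPRC had 14 to 43 counts and CD3E at most 4 in any library. Of 3 endothelial markers, 1 was higher (PECAM1, by 1.28), with a list sum between 1.59 and 3.20 CPM. Of 4 fibroblast markers, 1 was lower (COL1A1, by 0.15). Of all genes tested, 20.5% were higher and 19.8% lower, against which the counts of the leukocyte, endothelial and fibroblast lists can be set. The part of these differences in the results above was not tested.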

How the data were processed

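Per the labels' processing notes, reads were trimmed with fastp 0.23.0 and aligned with STAR, whereas the study's methods name Trimmomatic and HISAT2; both name GRCh38 and featureCounts (Subread 1.5.1). The authors deposited whole-number counts per gene without normalization, with the summed exon length in bases. Strand setting and handling of reads on several genes are not given in the sources used here. Genes were filtered with filterByExpr, scaled with TMM and tested with edgeR 4.0.16 (limma 3.58.1, R 4.3.3), with Benjamini-Hochberg adjustment over all genes tested. Standard errors were taken as the size of the log2 fold change over the square root of edgeR's F statistic. Intervals (95%) were built from these standard errors. Steps were tested on simulated data. Alternatives were DESeq2 1.42.0, other scalings and filters, the replicate block and each library left out. Exon overlaps used the deposited coordinates. Gene ends differ from GENCODE release 44 by at most 416 bases for the members (FBXL14), by 12530 for SKP2 and by 2041 for FBXL13, and LRRC29 was not matched by name. Sequences were read from that release, and proteins were aligned with Biopython 1.88. Named genes were FBXL6, the other FBXL genes, the SCF core, the 3 smallest adjusted p-values of the regulator and partner lists plus any called gene changed at least 1.5-fold there, the best known substrates, mRNAs bound by iron regulatory proteins and genes that overlap a member. Also named were cell markers, genes that overlap FBXL6 or another FBXL gene, and genes said above to be picked after their values were seen. Members and lists were chosen with earlier results of these data known. Label numbers were taken as replicate numbers. The study's methods use siFBXL6-1 and siFBXL6-2, which are also sample titles, as names of 2 different siRNAs, and which siRNA each library received is not given, so the 3 siFBXL6 libraries may not be replicates of 1 siRNA. Some genes that the lists or the rule select are not reported here and were left out of the counts of their lists.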

Additional observations from a re-analysis of the deposited data

How the results depend on the processing

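All 13 alternatives kept each of the 9 members and FBXL6 outside the threshold, with 1 exception: FBXL14 passed without siNC replicate 2 (0.27), so the number of members called higher ran from 0 to 1 over the left-out libraries and the number called lower was 0 throughout. When single libraries were left out, log2 fold changes ran from -0.018 to 0.15 for FBXL2, -0.13 to 0.039 for FBXL4, -0.041 to 0.031 for FBXL5, 0.0096 to 0.41 for FBXL8, -0.14 to -0.0033 for FBXL12, 0.15 to 0.27 for FBXL14, -0.37 to 0.056 for FBXL15, 0.09 to 0.28 for FBXL18, -0.043 to 0.006 for FBXL20 and -0.20 to -0.09 for FBXL6. Ranges that cross 0 changed sign, and the cause was not tested. Among other genes, signs also changed for FBXL13 (-0.65 to 9e-04), FBXL16 (-0.41 to 0.71), RBX1 (-0.14 to 0.023), FTH1 (-0.0023 to 0.055), RIMS1 (-0.59 to 0.14), FBXO3 (-0.0305 to 0.013), AC135048.13 (-0.37 to 0.24) and PSD (-0.59 to 0.0089). The number of genes called was 8569, with 7039 by DESeq2 and 6599 at an adjusted p under 0.01. It ran from 7451 to 8298 with a library left out, and was 8690 with upper quartile scaling and 8707 with library size alone. Of the calls, 45.7% were higher with upper quartile scaling and 45.1% with library size alone. In the main fit 4360 were higher and 4209 lower. With the replicate block 8408 genes and no member were called. FBXL14 then had a log2 fold change of 0.21 (adjusted p = 0.0867 in edgeR's test), and FBXL16 reversed to 0.0023. The deviations of same-numbered libraries had correlations of -0.0108, 7.99e-05 and 0.0133 over genes. Those of libraries with unlike numbers ran from -0.0184 to 0.0185. This measure weights all genes alike and cannot show whether the numbers pair libraries. FBXL8 and FBXL15 had 30 to 59 counts per library, and their SD within a group was 17.0% to 33.4% of the mean, against 14.7% and 14.9% expected from counting alone.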
